A study of Mus musculus with 2 samples.

Results

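The genes described here are the integrins, the laminin chains and 4 basement-membrane glycoproteins, in single cells of the embryonic mouse heart. They were chosen by symbol alone: every feature named Itga, Itgb, Lama, Lamb or Lamc followed by its chain code, together with Nid1, Nid2, Hspg2 and Agrn. This gave 41 of the 22401 features measured: 18 integrin alpha chains, 8 integrin beta chains, 5 laminin alpha, 3 laminin beta and 3 laminin gamma chains, and the 4 glycoproteins. Whole hearts at E11.5 were dissociated with TrypLE after approximately 3 hours on ice and profiled as 2 droplet libraries, 1 per genotype. Control hearts were Hand2fx/+R26RmTmG/wt, and H2CKO hearts were Nfatc1Cre/wtHand2fx/fxR26RmTmG/wt. Both genotypes therefore carried at least 1 floxed Hand2 allele and 1 copy of the mTmG reporter, in which Cre switches a cell from Tomato to GFP, and the Control genotype listed no Cre. Nfatc1-Cre is driven from the Nfatc1 locus, which is active in endocardial cells lining the chambers and valves, and Hand2 encodes a basic helix-loop-helix transcription factor that binds E-boxes. The comparison addresses which transcripts differ in these cells, and in those around them, when Hand2 is deleted in the endocardium. How many embryos were pooled, and their sex, is not in the labels.

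Integrins are receptors made of 1 alpha and 1 beta chain that tie the cytoskeleton to the matrix outside the cell. Laminins are trimers of an alpha, a beta and a gamma chain that polymerise on the cell surface as the base of a basement membrane, and nidogens, perlecan (Hspg2) and agrin (Agrn) link that network to collagen IV and to receptors. In the embryonic heart, basement membranes lie under the endocardium, around cardiomyocytes and beneath the epicardium, and endocardial cells that become cushion mesenchyme leave theirs. The matrix between endocardium and myocardium is called cardiac jelly.

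Sequencing yielded 195825720 UMIs (unique molecular identifiers, each standing for 1 captured RNA molecule) in 14114 Control barcodes and 201477256 UMIs in 13885 H2CKO barcodes. The 9054 Control cells used had a median of 16043 UMIs and 3085 genes, and the 11170 H2CKO cells 13313.5 UMIs and 2206.5 genes. The libraries had 57 barcodes in common, 30 of them among the cells used. Cells were clustered without the 41 genes and named from marker lists that hold none of them. Levels are CPM, the UMIs of a gene for every 1000000 UMIs of a class of cells in 1 library. Hand2 itself stood at 170 CPM in Control and 15.2 CPM in H2CKO endothelial-like cells, and at 175 and 55.9 CPM in mesenchymal-like cells. The chemistry tags the 3′ end, so a level does not scale with transcript length. Intervals are 95% exact and cover counting error only. With 1 library per genotype no difference has a replicate check, and none was tested.

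Endothelial markers were carried by 2 clusters. The endothelial-like cluster held 121 Control and 467 H2CKO cells, with Emcn, Plvap and Kdr among its leading genes. A separate cluster of 255 Control and 248 H2CKO cells also had all 12 endothelial markers at 20 CPM or more in Control, but Stmn2, Wnt4 and Klf2 led it and none of those markers did. Stmn2 is a neuron marker, so the cluster stayed unnamed by the marker rule, and it is called the Klf2-rich endothelial cluster. The 6 neuron markers summed to 783 CPM there in Control and 557 CPM in H2CKO, with 2 of them at 20 CPM or more, against 5.15 and 14.6 CPM in endothelial-like cells. The 12 mesenchymal markers summed to 4235 and 2069 CPM in the Klf2-rich cluster, with 10 and 7 at 20 CPM or more. Its 12 endothelial markers summed to 4230 and 3601 CPM. The other classes were cardiomyocyte-like (2504 and 3487 cells), mesenchymal-like (1731 and 1087), epicardial-like (689 and 201), white blood cell-like (71 and 105) and erythroid-like (2719 and 4992).

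The promoters of 4 members are shown because the genotype comparison below turns on them: Itga4, Itga9 and Nid1, among the members with the lowest ratios of H2CKO to Control, and Itga1, the measured member whose ratio lay above 1 in endothelial-like cells. Each is the 250 bases before the RefSeq start site on GRCm38.p6, written 5′ to 3′ on the strand of the gene. The windows are chr2:79255176-79255425 (Itga4, plus strand), chr9:118711442-118711691 (Itga9, plus strand), chr13:13437352-13437601 (Nid1, plus strand) and chr13:115101965-115102214 (Itga1, minus strand). Capitals mark E-boxes, CANNTG, a palindromic motif that reads the same on both strands.
Itga4: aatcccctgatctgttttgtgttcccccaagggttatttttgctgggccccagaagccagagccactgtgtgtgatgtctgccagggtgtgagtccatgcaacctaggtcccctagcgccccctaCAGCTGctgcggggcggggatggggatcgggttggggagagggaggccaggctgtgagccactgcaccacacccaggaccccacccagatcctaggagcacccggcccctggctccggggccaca
Itga9: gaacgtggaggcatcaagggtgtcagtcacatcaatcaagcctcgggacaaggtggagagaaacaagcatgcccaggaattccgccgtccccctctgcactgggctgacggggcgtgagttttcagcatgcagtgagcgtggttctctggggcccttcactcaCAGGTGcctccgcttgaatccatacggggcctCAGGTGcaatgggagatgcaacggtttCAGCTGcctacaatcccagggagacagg
Nid1: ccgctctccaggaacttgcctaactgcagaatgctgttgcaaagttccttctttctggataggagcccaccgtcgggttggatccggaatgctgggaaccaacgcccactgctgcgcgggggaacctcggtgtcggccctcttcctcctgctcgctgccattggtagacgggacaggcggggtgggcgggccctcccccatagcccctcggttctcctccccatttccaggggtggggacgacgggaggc
Itga1: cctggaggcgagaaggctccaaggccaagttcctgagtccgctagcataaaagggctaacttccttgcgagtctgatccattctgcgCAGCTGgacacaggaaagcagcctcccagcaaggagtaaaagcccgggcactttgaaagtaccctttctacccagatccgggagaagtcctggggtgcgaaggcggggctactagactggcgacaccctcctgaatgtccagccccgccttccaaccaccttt
The Itga9 window held 3 E-boxes, the Itga4 and Itga1 windows 1 each and the Nid1 window 0. The form CATCTG, a subset of the E-boxes linked to HAND proteins and searched on both strands, was in 0 of the 4. The same held for the GATA factor motif, spelled GATAA and also searched on both strands. Over 32851 promoter windows of that length, 66.2% held an E-box, 14.4% the HAND form and 22.6% the GATA motif. Promoters were found for 26 of the 41 members, with 30 windows, of which 22, 5 and 2 held these motifs. The RefSeq start of Itga9 lies inside the longer gene of the GENCODE annotation, so its window covers 1 of the possible starts.

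The members differed in the class of cells with their highest level. Of the 41 members, 20 reached 20 CPM in some class of both libraries, and 17 of these 20 had their highest level in the same class in Control and in H2CKO. The Klf2-rich endothelial cluster was highest for 7 of them (Agrn, Hspg2, Itga1, Itga2, Itga5, Itgav and Itgb4), mesenchymal-like cells for 3 (Itga4, Itgb1 and Itgb5), endothelial-like cells for 2 (Itga9 and Lama4), epicardial-like cells for 2 (Lama5 and Lamc1), white blood cell-like cells for 2 (Itga2b and Itgal) and cardiomyocyte-like cells for 1 (Nid2), with erythroid-like cells highest for 0. The other 3 were Itga6, Lamb1 and Nid1, which were highest in endothelial-like cells in Control. In H2CKO, Itga6 and Nid1 were highest in the Klf2-rich endothelial cluster and Lamb1 in epicardial-like cells. Several places were near ties with overlapping intervals. In Control, Lamc1 was at 96.4 CPM in epicardial-like and 95.04 CPM in endothelial-like cells. Itgav in Control was at 50.6 CPM in the Klf2-rich cluster and 46.8 CPM in epicardial-like cells. Lama4 in H2CKO was at 60.1 CPM in endothelial-like cells and 57.0 CPM in the Klf2-rich cluster. The unnamed cluster led by Rspo3, described below, was not ranked. Nid2 was higher there in both libraries, and Lamc1 in Control. The remaining 21 stayed below 20 CPM in every class of at least 1 library, and Itgad had 4 UMIs over all barcodes.

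**Figure D1:**
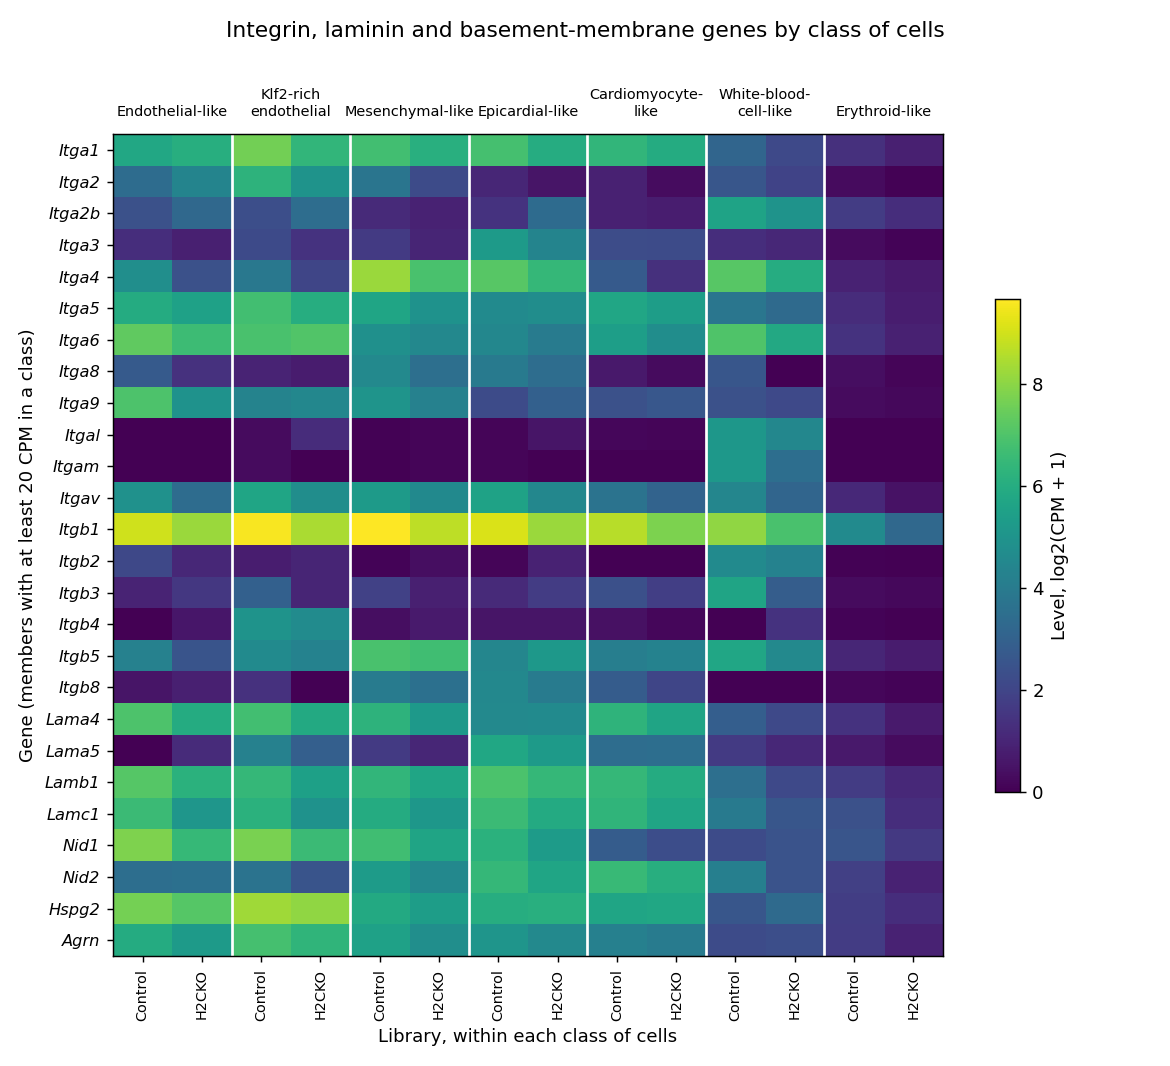
Heat map of the level of each member that reached 20 CPM in a class (rows), as log2(CPM + 1), in the Control and H2CKO library of each class of cells (columns). Itgb1 is bright in every class but the erythroid-like cells, while Itgb4 is seen in the Klf2-rich endothelial cluster and Itgal and Itgam in white blood cell-like cells.

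Itgb1 encodes the beta1 chain, the partner of most alpha chains. It was the main beta chain in the classes outside the blood and also in white blood cell-like cells. It made up 95.7% of integrin beta UMIs in Control endothelial-like cells (94.3 to 96.8) and 97.0% in H2CKO (96.1 to 97.7). Its level in Control was 814 CPM in mesenchymal-like cells, 752 CPM in the Klf2-rich endothelial cluster, 549 CPM in epicardial-like, 507 CPM in endothelial-like, 392 CPM in cardiomyocyte-like and 24.0 CPM in erythroid-like cells. In H2CKO the same classes stood at 415, 346, 298, 293, 218 and 8.67 CPM. Every class was lower in H2CKO, and the intervals of the libraries did not overlap in any of them. In the order of levels, the neighbours epicardial-like (536 to 563 CPM) and endothelial-like (477 to 538 CPM) had overlapping intervals in Control.

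Itgb4, whose chain pairs with alpha6 into a laminin receptor of hemidesmosomes, had 30.2 CPM in Control and 24.5 CPM in H2CKO in the Klf2-rich endothelial cluster. Elsewhere it did not pass 1.69 CPM. Itgb5, which pairs with alphav to bind vitronectin, was a mesenchymal gene at 118 and 104 CPM. It took 12.5% of the beta UMIs of Control mesenchymal-like cells (12.05 to 12.9) and 19.5% in H2CKO (18.5 to 20.5), where the share of Itgb1 was 85.6% and 78.1%. Itgb8, another alphav partner, stood at 22.1 and 15.4 CPM in epicardial-like and at 15.4 and 10.8 CPM in mesenchymal-like cells.

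The alpha chains differed between the classes. Itga4, whose product binds fibronectin and VCAM1, was 293 CPM in Control mesenchymal-like, 141 CPM in white blood cell-like and 140 CPM in epicardial-like cells, against 26.2 CPM in endothelial-like and 5.596 CPM in cardiomyocyte-like cells. It alone gave 49.9% of integrin alpha UMIs in Control mesenchymal-like cells (49.0 to 50.7) and 40.0% in H2CKO (38.3 to 41.7). Itga3, a laminin receptor chain, was at 37.7 and 19.5 CPM in epicardial-like cells and at most 4.88 CPM in the other classes. Itga8, the receptor chain for nephronectin, reached 22.3 and 10.7 CPM in mesenchymal-like cells.

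The collagen receptor chains Itga1 and Itga2 were highest in the Klf2-rich endothelial cluster, with 195 and 74.5 CPM in Control. Itga1 was also present in mesenchymal-like (107 CPM), epicardial-like (111 CPM) and cardiomyocyte-like cells (80.7 CPM), while Itga2 was at most 12.7 CPM outside the endothelium. The other collagen receptor chains, Itga10 and Itga11, did not pass 2.86 CPM in any class. In cardiomyocyte-like cells Itga1 gave 39.6% and 41.1% of the alpha UMIs and Itga5, the classical fibronectin receptor chain, 25.5% and 27.6%.

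Itga6, a laminin receptor chain, was at 159 CPM in Control endothelial-like cells (143 to 177) and 119 CPM in the Klf2-rich endothelial cluster, and at 41.4 CPM in cardiomyocyte-like cells taken whole. Within the cardiomyocytes, a small cluster led by Gal, Bmp2 and Cacna2d2, with Tbx3 also among its leading genes, had the highest level. There Itga6 stood at 341 CPM in 99 Control cells and 148 CPM in 196 H2CKO cells, against 28.3 and 18.9 CPM in the cluster led by Tnni2, Ryr2 and Myh7. Tbx3 is a transcription factor of the cardiac conduction system and Bmp2 a signal of the atrioventricular canal. Itgb8 followed the same division, with 41.4 and 22.1 CPM in that cluster against 5.02 and 2.12 CPM in the cluster led by Tnni2. Nid2 was at 151 and 101 CPM there, against 99.97 and 69.0 CPM. These contrasts between clusters are descriptions of cells clustered on the same libraries, although the 41 genes took no part in the clustering.

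The laminin chains separated the epicardium from the other classes. In endothelial-like cells Lama4, an alpha chain of vascular basement membranes, gave 95.4% of the 281 laminin alpha UMIs in Control (92.2 to 97.5) and 95.4% of the 389 in H2CKO (92.8 to 97.2). Its share was 90.0% and 88.6% in mesenchymal-like, 82.7% and 71.5% in cardiomyocyte-like, and 81.9% and 83.3% in the Klf2-rich endothelial cells. In epicardial-like cells Lama5, an alpha chain typical of epithelia, led with 57.4% of 1033 UMIs in Control (54.3 to 60.4) and 54.3% of 151 in H2CKO (46.0 to 62.4). Lama1, the alpha chain of early embryonic basement membranes, added 12.4% and 5.30% in those cells. No Lama5 UMI was found in Control endothelial-like cells, where the exact interval of its share reaches 1.30% of the alpha UMIs.

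**Figure D2:**
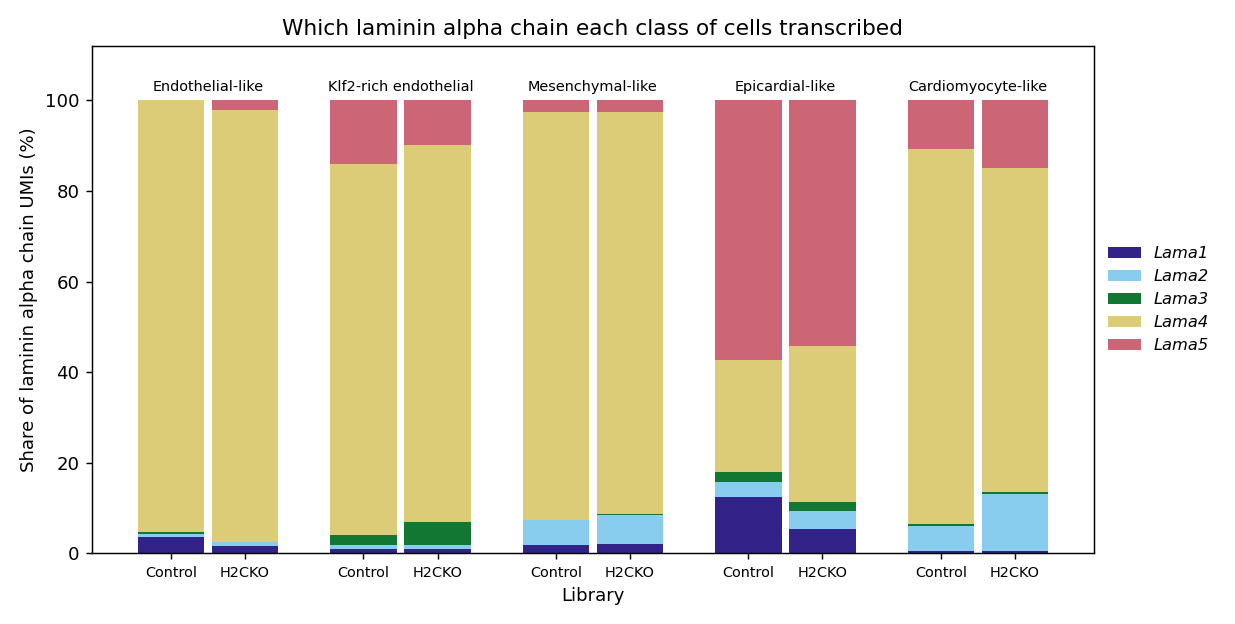
Stacked bars of the share of each laminin alpha chain among all laminin alpha UMIs (y axis, percent), for the Control (left bar) and H2CKO library (right bar) of 5 classes of cells. Lama4 fills 95.4% of both endothelial-like bars, and Lama5 is the largest part of both epicardial-like bars, at 57.4% and 54.3%.

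Lamb1 was the main beta chain in all 5 of these classes, between 73.1% and 93.9% of beta UMIs, and Lamc1 the main gamma chain. Lamc3 added 12.4% of gamma UMIs in Control epicardial-like cells, 153 of 1236, and 18 of 150 in H2CKO. In cardiomyocyte-like cells Lamb2, the beta chain of adult muscle basement membranes, was 9.63% of beta UMIs in Control (8.82 to 10.48) and 22.3% in H2CKO (21.2 to 23.4), at 9.22 and 17.7 CPM. That level was under 20 CPM in both libraries, so Lamb2 did not enter the genotype count in these cells.

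The linker glycoproteins differed among themselves. Nid1 was at 223 and 87.5 CPM in endothelial-like cells and at 5.98 and 3.83 CPM in cardiomyocyte-like cells. Nid2 had the opposite order, at 10.3 and 10.9 CPM in endothelial-like and 90.0 and 65.9 CPM in cardiomyocyte-like cells. Nid2 was higher still, at 141 and 103 CPM, in an unnamed cluster of 385 Control and 507 H2CKO cells led by Rspo3, Masp1 and Sema3c. All 12 cardiomyocyte markers were at 20 CPM or more in that cluster, summing to 65163 and 58071 CPM. In cardiomyocyte-like cells they summed to 52570 and 50485 CPM. The summed smooth muscle markers were 6430 and 6254 CPM in that cluster, against 4260 and 2860 CPM in cardiomyocyte-like cells. Hspg2, the heparan sulfate proteoglycan perlecan, stood at 313 and 269 CPM in the Klf2-rich endothelial cluster, 201 and 140 CPM in endothelial-like and 49.9 and 53.6 CPM in cardiomyocyte-like cells. Agrn was at 111 and 79.4 CPM in the Klf2-rich endothelial cluster.

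Between the genotypes, most members measured in endothelial-like cells were lower in H2CKO, 12 of 13, beside 67.3% of all genes measured. A member was counted as lower or higher when the log2 ratio of H2CKO over Control, each with 5 CPM added, was at least 1 in size. It was measured for members with at least 20 CPM and 20 UMIs in the higher library, which kept 13 of the 41 here. Of these 13, 6 were at least 2-fold lower and 0 at least 2-fold higher. Of the 6, Itga4 and Itgav reached 20 CPM in Control alone. Over all 6376 genes measured this way, 7.79% were lower and 1.46% higher. The median log2 ratio of the 13 members was -0.90, and that of all genes -0.24.

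Itga9, whose product binds tenascin C and VCAM1, had the lowest ratio with 5 CPM added. It stood at 125 CPM in Control (111 to 141) and 29.5 CPM in H2CKO (25.4 to 34.1), 4.25-fold lower (3.51 to 5.16), with a log2 ratio of -1.92. Itga4 stood at 26.2 and 4.22 CPM, 6.22-fold lower (3.84 to 10.3), but rested on 56 and 26 UMIs. With 1 CPM added the order turned, at -2.38 for Itga4 and -2.05 for Itga9, and Itga4 was also the lower of the pair without doublet removal, with thinning and with the gene span trend taken out. Lamc1 stood at 95.04 and 32.4 CPM, 2.93-fold lower (2.40 to 3.58), and Nid1 at 223 and 87.5 CPM, 2.55-fold lower (2.25 to 2.88). Itgav was at 28.6 and 9.73 CPM, a log2 ratio of -1.19, and Lama4 at 125 and 60.1 CPM, a log2 ratio of -1.002 that lay at the threshold. With each cell thinned to 5000 UMIs, Itga9, Lamc1 and Nid1 were still counted as lower. Itga4 (-2.22) and Itgav (-1.30) kept ratios past 2-fold but no longer reached the filter on CPM and UMIs, Lama4 was at -0.60, while Itga2 was at least 2-fold higher. With each cell named by its own markers, which joins both endothelial groups, 6 members were again lower, but they were Itga1, Itga2, Itgav, Itgb1, Lamc1 and Nid1. Itga9 (-0.94) and Lama4 (-0.88) were not past 2-fold there and Itga4 (-1.01) did not reach the filter, so Itgav, Lamc1 and Nid1 were the 3 counted both ways. With ratios centred on the median gene, Itgav and Lama4 were no longer counted. With the gene span trend taken out Lamc1 and Nid1 were not either, which left Itga4 and Itga9. Itga4 reached the CPM filter in Control alone.

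The more abundant members that did not pass 2-fold were Itgb1 (507 and 293 CPM), Hspg2 (201 and 140 CPM), Itga6 (159 and 98.9 CPM) and Lamb1 (138 and 71.8 CPM), all lower in H2CKO. Itga1 was the exception among the 13. It had 55.2 CPM in Control (45.7 to 66.2) and 65.7 CPM in H2CKO (59.4 to 72.4), a ratio of 1.19 whose interval included 1. With cells named by their own markers its log2 ratio was -1.03, and all 14 members measured then lay below the median of all genes. That naming joins both endothelial groups, and Itga1 was at 195 CPM in the Klf2-rich Control cells. The endothelial-like cluster held 121 Control and 467 H2CKO cells, and the Klf2-rich one 255 and 248. The part of this mix in the ratios with own markers was not tested. Itga2, just under the 20 CPM that a member had to reach, was also higher in H2CKO, at 9.83 CPM (6.09 to 15.03) and 19.8 CPM (16.4 to 23.6), and its log2 ratio was -1.02 with own markers. The share of Itga9 among integrin alpha UMIs went from 26.2% (23.5 to 29.0) to 10.4% (9.0 to 11.9), and that of Itga1 from 11.5% (9.7 to 13.7) to 23.0% (21.1 to 25.1), in the same cells.

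Markers of mesenchyme moved with this difference. The summed level of the 12 mesenchymal markers in endothelial-like cells was 1640 CPM in Control, with 7 markers at 20 CPM or more and 1 at 0, and 581 CPM in H2CKO, with 5 at 20 CPM or more and 0 at 0. Itga4 is itself highest in mesenchymal-like cells. The summed endothelial markers were at 3991 and 4593 CPM, and the summed cardiomyocyte markers at 1657 and 1536 CPM. The part of the mesenchymal RNA in the lower levels was not tested.

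**Figure D3:**
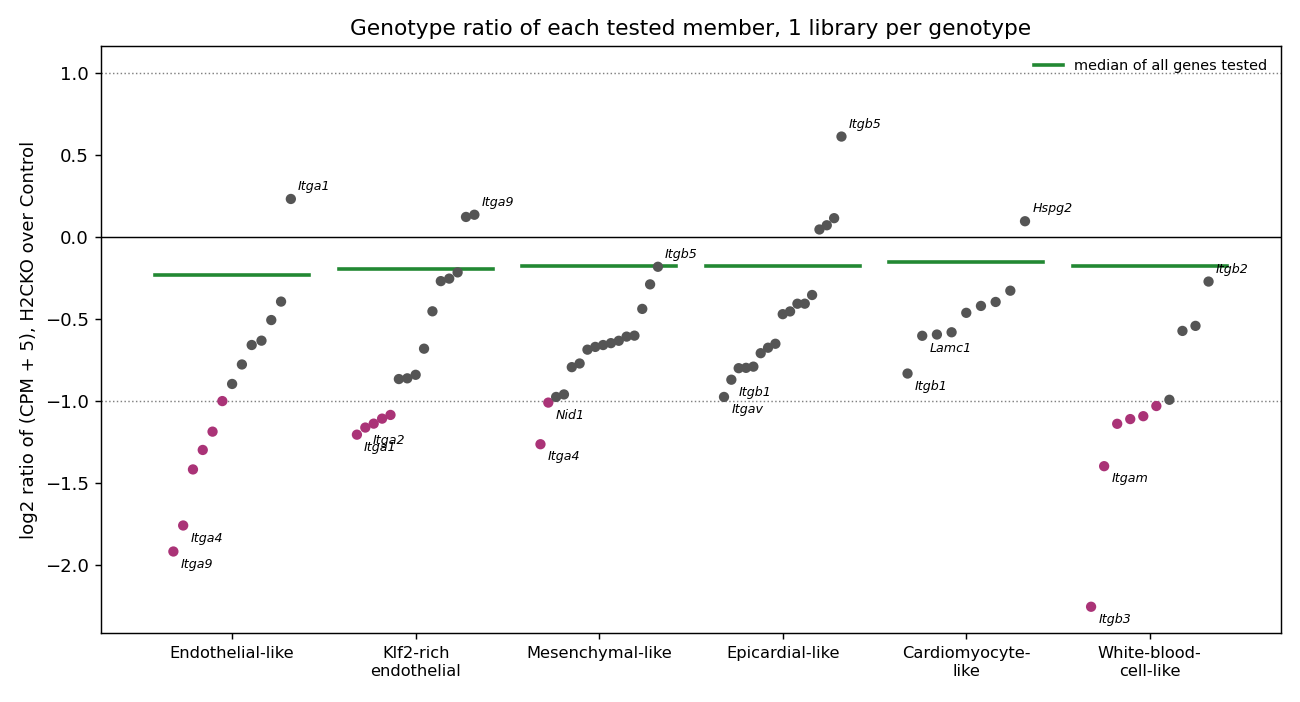
Log2 ratio of CPM + 5 in H2CKO over Control (y axis) for every member measured in 6 classes of cells (x axis), 1 point per member sorted by its ratio, with the median of all genes of the class as a bar and purple points at a ratio of -1 or below. Most points lie below the bar of their class. Itgb3 at -2.26 in white blood cell-like cells is the lowest point and Itgb5 at 0.61 in epicardial-like cells the highest. Itga9 at -1.92 is the lowest in endothelial-like cells.

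In the Klf2-rich endothelial cluster, 15 members were measured, of which 5 were at least 2-fold lower and 0 higher, beside 2.85% lower and 0.528% higher of all 6623 genes. The 5 were Itga1 (195 and 81.5 CPM, log2 ratio -1.21), Itga2 (74.5 and 30.5 CPM, -1.16), Lamc1 (71.7 and 29.8 CPM, -1.14), Itgb1 (752 and 346 CPM, -1.11) and Nid1 (208 and 95.5 CPM, -1.09). Lamc1 and Nid1 were thus past 2-fold in both endothelial groups. Nid1 was not past 2-fold in the Klf2-rich cells of the deposited embedding. With thinning neither Nid1 nor Itga1 was, and Lamb1 joined Itga2, Itgb1 and Lamc1. With ratios centred on the median gene Itga1 was the 1 member left, and with the gene span trend taken out 0 were. Itga9 was at 18.8 CPM in Control (14.9 to 23.4) and 21.1 CPM in H2CKO (16.2 to 27.0), and Itga6 at 119 and 129 CPM, both with overlapping intervals. Itga5 (106 and 64.4 CPM) and Lama4 (106 and 57.0 CPM) lay below 2-fold, as did Agrn and Hspg2. The summed erythroid markers in this cluster were 9689 CPM in Control and 24374 CPM in H2CKO, and the summed mesenchymal markers 4235 and 2069 CPM; their part in the ratios was not tested.

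Cushion mesenchyme descends in part from the endocardium. Of 16 members measured in mesenchymal-like cells, 2 were at least 2-fold lower and 0 higher, beside 2.36% lower and 0.199% higher of all 6526 genes. All 16 had a log2 ratio below 0, beside 63.5% of all genes. The median of the members was -0.67 against -0.18 for all genes. Itga4 stood at 293 CPM in Control (286 to 300.0) and 119 CPM in H2CKO (113 to 126), 2.46-fold lower (2.32 to 2.61). Nid1 was at 104 and 49.3 CPM, 2.12-fold lower (1.93 to 2.33). Itgb1 (814 and 415 CPM, log2 ratio -0.96) and Lama4 (75.4 and 35.8 CPM, -0.98) lay just inside the threshold. With cells thinned to 5000 UMIs, with cells named by their own markers and with centring, Itga4 was the 1 member past 2-fold, and with the gene span trend taken out 0 were. Itga1 was at 107 and 68.3 CPM, and Itgb5 had the ratio closest to 0, at -0.18.

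Itga4 was lower in each of the 3 mesenchymal clusters. It stood at 205 and 69.7 CPM in the cluster led by Car3, Twist1 and Msx1, with Hapln1 and Sox9 also among its leading genes, and at 422 and 197 CPM in the cluster led by Inhba, Tgfbi and Meox1. In the cluster led by Tcf21 it stood at 243 and 90.9 CPM. Nid1 was 97.7 and 35.0 CPM in the first of these clusters and 106 and 62.9 CPM in the second. Itga9 had 52.8 and 34.2 CPM in the Inhba cluster and 16.5 and 5.81 CPM in the Car3 cluster, but 17.9 and 20.3 CPM in the Tcf21 cluster, a ratio of 1.13 (0.65 to 1.94). The summed mesenchymal markers in these cells were 7907 CPM in Control and 4133 CPM in H2CKO, and the summed erythroid markers 5900 and 9637 CPM. Their part in the ratios was not tested.

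Within the H2CKO library the reporter allowed a comparison that did not involve the Control cells. GFP was detected in 398 of 1087 mesenchymal-like cells, 36.6%, against 17.3% of the Control mesenchymal-like cells, whose genotype listed no Cre, and 5.21% of the H2CKO erythroid-like cells. H2CKO mesenchymal-like cells with GFP had a median of 9467 UMIs and those without 9732, against 14037 and 12323 in Control. A GFP UMI alone therefore does not show that Cre had acted in a cell. Of 15 members measured, 0 passed 2-fold in either direction, beside 0.308% lower and 0.103% higher of all 5841 genes, and their median log2 ratio was -0.04. Itga9 (22.9 CPM without and 9.24 CPM with GFP, log2 ratio -0.97) and Itga4 (142 and 79.8 CPM, -0.80) had the lowest ratios, followed by Nid1 (54.5 and 40.4 CPM, -0.39). Itga9 reached the CPM filter in the cells without GFP alone. Without the added 5 CPM, it was 2.48-fold lower with GFP (1.73 to 3.63). It passed 2-fold with 1 CPM added, with thinning and with cells named by their own markers, Itga4 passed in the cells of the deposited embedding, and both passed when GFP meant at least 2 GFP UMIs. Itgb1 was at 432 and 389 CPM.

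The GFP cells were unevenly spread over the mesenchymal clusters. They made up 55.0% of 604 cells in the Car3 cluster, 13.6% of 389 in the Inhba cluster and 13.8% of 94 in the Tcf21 cluster. Within these clusters the log2 ratio of Itga4 with over without GFP was -0.20, -0.41 and -0.30, and that of Nid1 0.07, -0.14 and -0.44. Itga9, at 2.48-fold over the whole class, was 1.41-fold lower with GFP in the Car3 cluster (0.68 to 2.96), 1.16-fold in the Inhba cluster (0.72 to 1.96) and 2.22-fold in the Tcf21 cluster (0.54 to 19.6), all with intervals that include 1. The difference of Itga4 by genotype within the same clusters was -1.49, -1.08 and -1.37. Cells without GFP in H2CKO were thus themselves lower in Itga4 than Control cells, at 142 CPM over the class against 293 CPM.

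In H2CKO endothelial-like cells, 289 had a GFP UMI and 178 had none, at 11366 and 9807.5 UMIs per cell in the median. This split was added after the mesenchymal one had been seen. In Control, GFP was detected in 21.5% of endothelial-like cells and 22.4% of the Klf2-rich endothelial cluster, though the genotype listed no Cre. A GFP UMI therefore does not show that Cre had acted in a cell, and its lack does not show that Cre had not. Of 12 members measured, 0 passed 2-fold, beside 0.0538% lower and 0.0179% higher of all 5579 genes. Itga9 was at 31.0 CPM without and 28.8 CPM with GFP, Nid1 at 87.98 and 87.5 CPM and Lama4 at 60.0 and 60.3 CPM. With and without GFP, the H2CKO cells lay below the Control levels of 125, 223 and 125 CPM. In the Klf2-rich endothelial cluster, 218 H2CKO cells had a GFP UMI and 30 had none, at 9457 and 6623 UMIs in the median. Without GFP, Itga2, Itga6, Itga9 and Itgb4 had 1 to 3 UMIs each and reached the filter through the cells with GFP, so members past 2-fold were not counted in this split. Among members with more UMIs without GFP, Itgb1 was at 403 CPM without and 342 CPM with GFP, a ratio of 0.85 (0.68 to 1.08). Hspg2 was at 162 and 277 CPM, a ratio of 1.71 (1.21 to 2.50), Itga1 at 128 and 78.2 CPM, a ratio of 0.61 (0.41 to 0.96), and Nid1 at 63.8 and 98.05 CPM, a ratio of 1.54 (0.88 to 2.92).

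**Figure D4:**
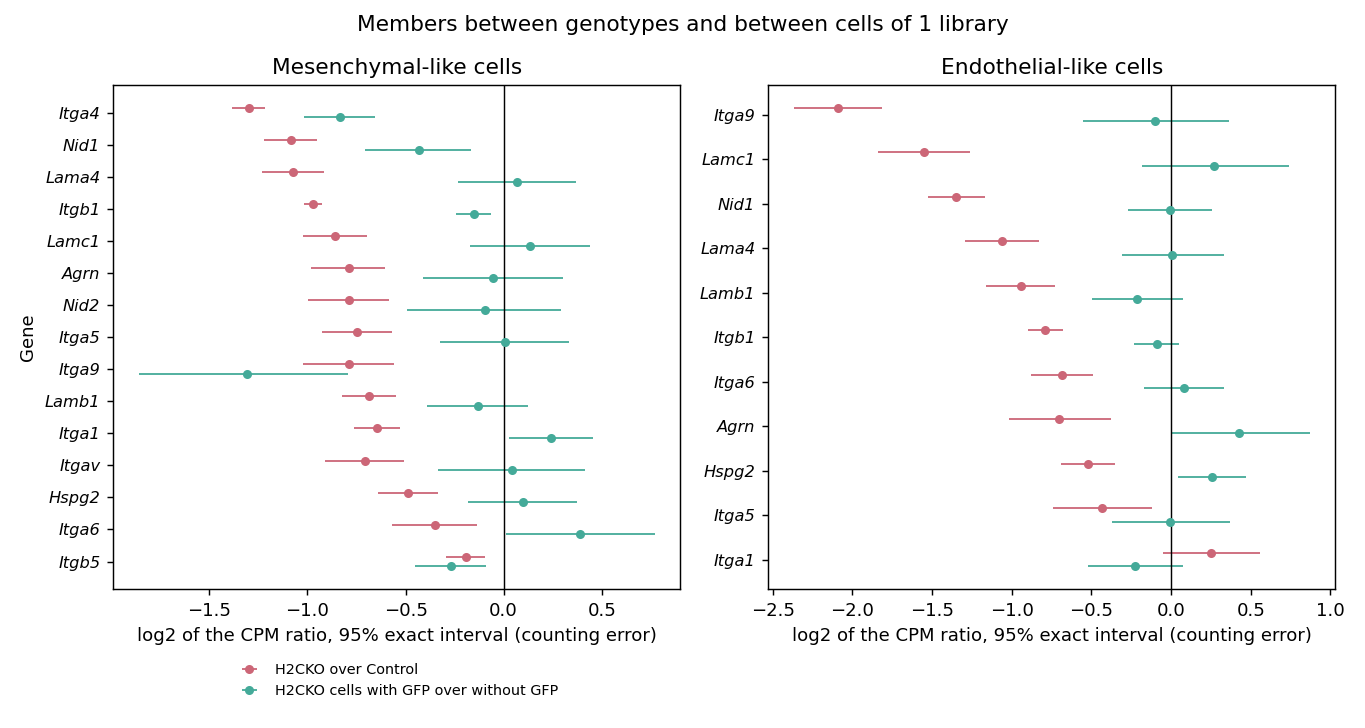
Log2 of the CPM ratio with its 95% exact interval (x axis) for each member measured in both contrasts (y axis), as H2CKO over Control and as H2CKO cells with over without GFP, in mesenchymal-like (left) and endothelial-like cells (right). All genotype points lie left of 0 in mesenchymal-like cells. The GFP points of Itga4 and Nid1 are nearer to 0 there, while that of Itga9 lies farther left than its genotype point. In endothelial-like cells the GFP intervals of all but Hspg2 include 0.

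Cardiomyocyte-like cells had 9 members measured and 0 past 2-fold in either direction, beside 0.486% lower and 0.252% higher of all 5561 genes. Itgb1 (392 and 218 CPM, log2 ratio -0.83) had the lowest ratio. Hspg2 was the exception, at 49.9 CPM in Control (48.0 to 51.8) and 53.6 CPM in H2CKO (51.9 to 55.3). Its log2 ratio of 0.09 was -0.07 under the stricter cell filter and -0.02 in the cells of the deposited embedding. A shallow cluster with a median of 1609 UMIs held 855 of the Control and 150 of the H2CKO cardiomyocyte-like cells. Over the whole class the summed smooth muscle markers were 4260 and 2860 CPM and the summed mesenchymal markers 582 and 338 CPM. The summed erythroid markers were 7334 and 7709 CPM. Their part in the ratios was not tested.

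In epicardial-like cells 17 members were measured, of which 0 passed 2-fold, beside 4.31% lower and 0.506% higher of all 6329 genes. Itgav (46.8 and 21.3 CPM, log2 ratio -0.98) and Itgb1 (549 and 298 CPM, -0.87) had the lowest ratios, and Itga4 (140 and 85.8 CPM), Itga1 (111 and 61.7 CPM) and Lamb1 (122 and 86.3 CPM) were also lower. Without the added 5 CPM, Itgav was 2.20-fold lower (1.63 to 3.03). In 6 alternatives 1 member was counted lower: Itgav under the stricter cell filter, in the cells of the deposited embedding, with own markers and with 1 CPM added, Itga4 without doublet removal, and Itga3 with thinning. Itgb5 had the opposite sign, at 20.9 CPM in Control (18.3 to 23.7) and 34.5 CPM in H2CKO (27.2 to 43.2), 1.65-fold higher (1.26 to 2.15). Summed erythroid markers in these cells were 5884 and 17869 CPM, and summed megakaryocyte markers 10.3 and 155 CPM, with Itga2b at 1.70 and 9.53 CPM. Their part in these ratios was not tested.

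The blood classes carried the leukocyte and platelet integrins. White blood cell-like cells had 10 members measured, of which 6 were at least 2-fold lower and 0 higher, beside 7.34% lower and 1.12% higher of all 5870 genes. Itgb3, which with Itga2b forms the platelet fibrinogen receptor, was at 48.5 CPM in Control and 6.20 CPM in H2CKO, 7.82-fold lower (4.11 to 16.4). Those levels rested on 68 and 11 UMIs, and 26 of the 68 came from 1 cell. With cells named by their own markers the log2 ratio of Itgb3 was -0.24 in place of -2.26. Itgam, the alpha chain of the macrophage integrin, was at 34.9 and 10.2 CPM. Both Itgb3 and Itgam reached the CPM filter in Control alone. The other 4 were Itgb1 (265 and 117 CPM), Itga6 (128 and 56.4 CPM), Itga4 (141 and 63.2 CPM) and Itgb5 (51.4 and 22.6 CPM). Itgal and Itgb2, which together form the leukocyte integrin LFA, were at 33.5 and 21.4 CPM and at 23.5 and 18.6 CPM. The count of 6 fell to 1 with thinning (Itgb1) and to 2 with own markers (Itga4 and Itgam), where Hspg2 was higher, and to Itgam and Itgb3 with centring or with the span trend taken out.

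UMIs of Itga2b and of Itgam were each found in a minority of the cells of this class. Most cells with either gene would lack the other even if the genes were unrelated. Whether they shared fewer cells than that was not tested. An Itga2b UMI was found in 20 of 71 Control and 22 of 105 H2CKO cells, and an Itgam UMI in 21 and 14. Of the cells with Itgam, 2 in Control and 1 in H2CKO also had Itga2b. Erythroid-like cells, whose median UMIs were 18394 and 13224.5 against 17467 and 16562 here, served as background. There Itga2b was found in 4.27% and 1.90% of cells and Itgam in 0 cells of both libraries. The summed megakaryocyte markers in the class were 1842 CPM in Control and 543 CPM in H2CKO, and the summed cardiomyocyte markers 4208 and 1524 CPM. Their part in the lower Itgb3 and in the other ratios was not tested. In erythroid-like cells Itgb1 was the 1 member measured, at 24.0 and 8.67 CPM, at least 2-fold lower, beside 7.58% lower and 0.349% higher of all 2006 genes. It reached the CPM filter in Control alone, and was not past 2-fold with thinning, centring or the span trend taken out. The libraries filled different erythroid-like clusters: the cluster led by Hbb-bs, Aqp8 and Bpgm held 97 Control and 2000 H2CKO cells, and the cluster led by Hsd3b6, Slfn14 and Gm16867 held 934 and 107.

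Long genes were lower in H2CKO in every class, and most of the members measured are long. The median span of the 13 members measured in endothelial-like cells was 82520 bases against 24666 for all genes. Across genes, which are not independent replicates and share both libraries, Spearman's rho of the log2 ratio with gene span was -0.45 in endothelial-like and -0.55 in mesenchymal-like cells, and 0.07 between cells with and without GFP. Against genes of similar span, in 10 bins, 11 of 13 members lay below the median in endothelial-like, 13 of 16 in mesenchymal-like, 8 of 9 in cardiomyocyte-like, 10 of 15 in Klf2-rich endothelial and 10 of 17 in epicardial-like cells. With the trend taken out of the ratios, Itga4, which reached the CPM filter in Control alone, and Itga9 still passed 2-fold in endothelial-like cells. In mesenchymal-like cells 0 members did.

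**Figure D5:**
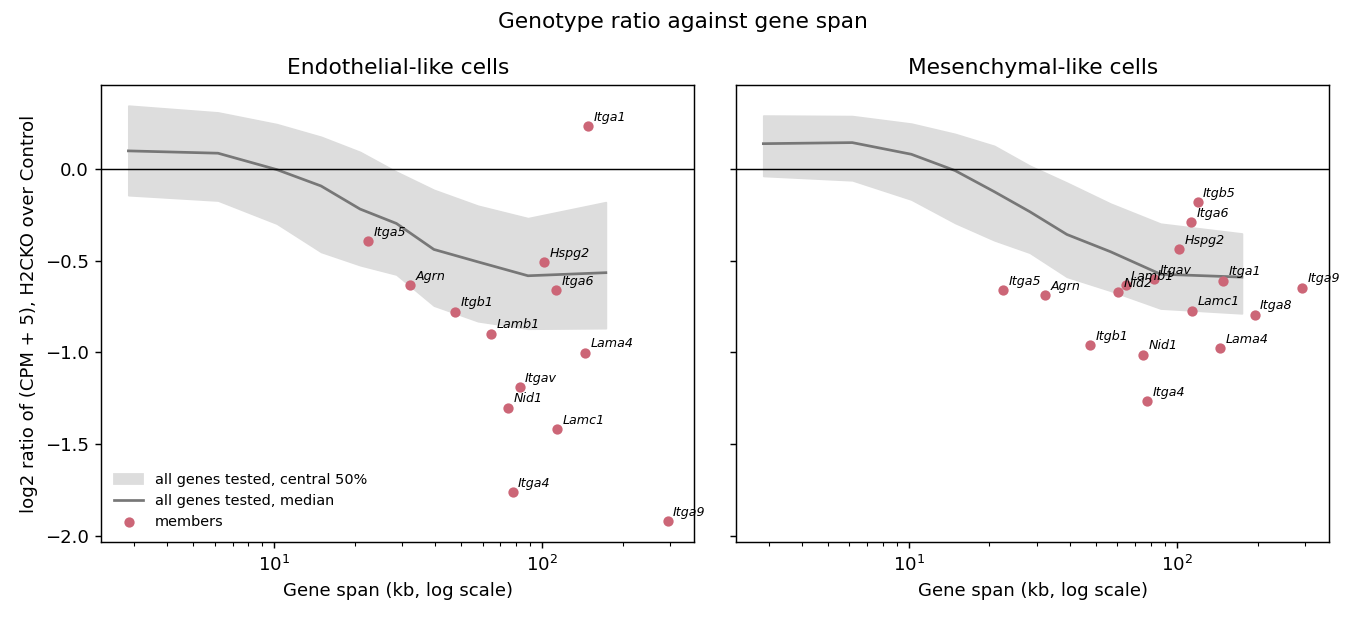
Log2 ratio of H2CKO over Control (y axis) against gene span in kb (x axis, log scale) for the members in endothelial-like (left) and mesenchymal-like cells (right), with the median and central 50% of all genes measured in 10 bins of span. The grey band falls with span. Itga9, Itga4, Lamc1, Nid1, Itgav, Lama4 and Lamb1 are among the members below it in endothelial-like cells, while Itga1 lies above.

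Genes that work with these receptors and matrix proteins were read from 4 further lists, none of which holds a member. Among integrin adaptors and effectors, 0 of 15 measured were higher and 1 was lower in endothelial-like cells, beside 1.46% and 7.79% of all genes. The lower one was the actin crosslinker Actn1, at 148 and 51.2 CPM. The focal adhesion kinase Ptk2 (109 and 52.7 CPM, log2 ratio -0.98) and the tensin Tns1 (33.7 and 14.9 CPM, -0.96) came next, and the integrin-linked kinase Ilk had 63.7 and 89.5 CPM. In mesenchymal-like cells 0 of 16 passed, with Tns1 (65.4 and 30.8 CPM), Ptk2 (50.8 and 27.4 CPM), Tln2 (27.5 and 16.1 CPM) and Vcl (131 and 83.8 CPM) having the ratios farthest from 0. The list's median log2 ratio was 0.06 and -0.28 in these classes, against -0.24 and -0.18 for all genes.

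Among integrin ligands, 2 of 12 were higher and 2 lower in endothelial-like cells, beside 1.46% higher and 7.79% lower of all genes, and the list's median log2 ratio was 0.29 against -0.24. Fibronectin, Fn1, stood at 2218 CPM in Control and 835 CPM in H2CKO, and periostin, Postn, which is also a mesenchymal marker, at 128 and 22.5 CPM. The leukocyte adhesion receptor Icam1 was at 19.2 and 52.7 CPM and Tgfb1, whose latent form binds alphav integrins, at 64.1 and 137 CPM. In mesenchymal-like cells, where 0.199% of all genes were higher and 2.36% lower, 0 of 13 were higher and 1 lower, tenascin C (Tnc, 67.5 and 26.2 CPM), with Thbs1 (272 and 134 CPM), Fn1 (706 and 446 CPM) and Edil3 (86.8 and 56.6 CPM) below 2-fold. Tnc was also the 1 ligand of 13 that passed between mesenchymal-like cells with and without GFP, where it was lower, beside 0.308% of all genes.

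Among other basement-membrane components, 1 of 8 was higher and 2 lower in endothelial-like cells, beside the same 1.46% and 7.79% of all genes, with a median log2 ratio of -0.63 against -0.24. Both chains of the common collagen IV molecule were lower, Col4a1 at 957 and 389 CPM and Col4a2 at 458 and 203 CPM. Tinagl1, a secreted matrix protein, went the other way, at 16.9 and 255 CPM, and Fbln2 was at 30.0 and 13.1 CPM. In mesenchymal-like cells 0 of 8 passed, with Col18a1 (294 and 146 CPM), Fbln2 (446 and 231 CPM), Col4a2 (59.5 and 34.9 CPM) and Pxdn (87.9 and 56.3 CPM) farthest from 0. Of the other laminin and basement-membrane receptors, 0 of 5 passed in endothelial-like cells, where the dystroglycan gene Dag1 was at 52.9 and 33.1 CPM, Sdc1 at 42.6 and 26.6 CPM, and the tetraspanins Cd9 at 81.9 and 118 CPM and Cd151 at 74.0 and 99.4 CPM. In mesenchymal-like cells 0 of 11 were higher and 1 lower, the collagen receptor Ddr2 at 22.1 and 7.74 CPM, beside 0.199% higher and 2.36% lower of all genes, while Cd151 was at 54.1 and 82.9 CPM, Cd9 at 17.0 and 27.7 CPM and Dag1 at 55.0 and 37.7 CPM.

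In Klf2-rich endothelial, cardiomyocyte-like and epicardial-like cells these lists had 0 genes at least 2-fold higher, beside 0.528%, 0.252% and 0.506% of all genes. The shares lower were 2.85%, 0.486% and 4.31%. In the Klf2-rich endothelial cluster the lower genes were Thbs1 and Tnc among 13 ligands and Fbln2 among 9 basement-membrane components. In cardiomyocyte-like cells 1 passed, Fn1, among 5 ligands. In epicardial-like cells they were Npnt among 10 ligands and Col4a5 and Col4a6 among 11 basement-membrane components. In white blood cell-like cells, where 1.12% of all genes were higher and 7.34% lower, Spp1 and Icam2 were higher and Fn1 and Thbs1 lower among 7 ligands, Vcl and Fermt2 lower among 11 adaptors, and Tinagl1 higher among 3 basement-membrane components.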

How the data were processed

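Single cells of Control and H2CKO hearts were measured in 1 library each. The authors deposited UMI counts per gene and barcode, unnormalised, per the file headers. Cell Ranger 5.0.1, Seurat 4 and the GRCm38.p6 build are listed, per the submitters' processing notes, with no role given. Embedding coordinates, a deposited score with no unit, were used only to mark a subset of 5408 Control and 6232 H2CKO barcodes. The members and the gene lists were chosen with earlier results of these data known.

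Barcodes below 500 genes or above 10% mitochondrial UMIs were dropped, which left 9841 and 12141, and the 8% with the highest simulated-doublet scores were removed in each library (787 and 971). After scaling each cell to 10000 and taking logs, the 2000 genes of highest variability, without the 41 members, haemoglobin, mitochondrial and Y-linked genes, Tsix, Hand2 and both reporters, were scaled within each library. From 30 principal components (numpy 2.4.6) each cell was joined to 15 neighbours from each library (scikit-learn 1.9.0), and Leiden clustering (leidenalg 0.10.2, resolution 1) gave 19 clusters. Names came from 13 marker lists: the median marker fold had to reach 0.25 on the log2 scale, 3 or more markers had to be found in 10% of the cells, and the 10 leading genes could not favour another class. Clusters that missed this stayed unnamed.

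UMIs were summed per class and library, so total UMIs behind a class ran from 1402033 to 68973363. CPM, the log2 ratio of CPM plus 5, and exact Poisson, conditional and Clopper-Pearson intervals (scipy 1.17.1) were computed from them, with 1 library per genotype and hence no test. UMIs were collapsed per molecule, and intervals do not cover differences between embryos. Members past 2-fold, and those of at least 100 CPM in a class, are named, with at most 4 genes of each further list in endothelial-like and mesenchymal-like cells. The ratio step was tested on simulated counts. Gene span and positions came from GENCODE vM21 (GRCm38), promoters from RefSeq (GRCm38.p6).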

Additional observations from a re-analysis of the deposited data

Results flagged for a closer look

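Hspg2 had a log2 ratio of 0.09 in cardiomyocyte-like cells, where the interval of the CPM ratio lay above 1, while its ratio was below 0 with an interval below 1 in endothelial-like, Klf2-rich endothelial and mesenchymal-like cells. The ratio in cardiomyocyte-like cells fell below 0 under the stricter cell filter (-0.07) and in the cells of the deposited embedding (-0.02). Itgb5 had a log2 ratio of 0.61 in epicardial-like cells and ratios below 0 in mesenchymal-like and white blood cell-like cells. These opposite signs between classes of cells drew attention to both genes. With 1 library per genotype the difference between the classes was not tested.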

How the results depend on the processing

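No paired analysis was possible because each genotype has 1 library, and for the same reason no replicate could be left out. In endothelial-like cells the count of lower members (6) became 3 with each cell thinned to 5000 UMIs, where 1 was higher (Itga2), 2 with the gene span trend taken out and 3 among genes of at least 100 CPM, and 4 with centring on the median gene. With each cell named by its own markers it stayed at 6, of which 3 were the same members. In the Klf2-rich endothelial cluster the lower members (5) became 1 with centring, 4 with thinning (3 of them the same), 0 with the span trend taken out and 3 at 100 CPM; naming cells by their own markers leaves no such cluster. In mesenchymal-like cells the lower members (2) became 4 without doublet removal, 1 with thinning, with own markers and with centring, and 0 with the span trend taken out. In epicardial-like cells the lower members (0) became 1 under the stricter cell filter, without doublet removal, in the cells of the deposited embedding, with thinning, with own markers and with 1 CPM added. The higher members there (0) became 1 with the span trend taken out (Itgb5) and without the expression filter. In white blood cell-like cells the lower members (6) became 1 with thinning, 2 with own markers (where 1 was higher, Hspg2), with centring and with the span trend taken out, and 3 at 100 CPM; the stricter filter left too few of these cells. In erythroid-like cells, of which the embedding holds 0, the 1 lower member became 0 with thinning, centring, the span trend taken out and at 100 CPM. Between mesenchymal-like cells with and without GFP the lower members (0) became 1 in the embedding cells, with thinning, with own markers and with 1 CPM added, and 2 with at least 2 GFP UMIs (Itga4 and Itga9), and the members' median of -0.04 became 0.06 in the embedding cells. Of the members with the same class of highest level in both libraries (17), 4 were left at 100 CPM and 32 were counted without a filter, since fewer or more members qualify. Smaller rises were to 7 in endothelial-like cells (embedding, no expression filter), to 6 in the Klf2-rich cluster (stricter cell filter, no doublet removal, no expression filter), to 3 in mesenchymal-like cells (embedding, 1 CPM added, no expression filter) and to 7 in white blood cell-like cells (no doublet removal, 1 CPM added, no expression filter). The causes of the other shifts were not tested. Of 653 values of single members over 66 results, 561 moved by less than their counting interval and 92 moved further. The sign differed in 23 values of 15 results, among them Itga1 and Itga2 in endothelial-like cells with own markers, and in 0 values of the members past 2-fold as first measured. The 121 Control endothelial-like and 71 Control white blood cell-like cells limit the precision of those classes.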
